A study of Mus musculus with 31 samples.

Results

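Clec2h, Tmeff2, Cib3, Pcp4l1, Adrb3 and the long non-coding RNA 0610005C13Rik were followed across the livers of 2 ChREBP mutant mouse lines. These 6 genes, of 23968 genes kept on the array, were chosen by their higher level in total ChREBP-KO livers and by having no known link to lipogenesis. Their 11 probes were found by gene symbol, and 10 of them passed the filter on dim spots. The study profiled liver RNA of male C57BL6/J mice on Agilent 1-colour arrays, 1 mouse per array. Total ChREBP-KO mice (ChREBPtotal_KO, n = 7) carried a whole-body null allele of Mlxipl, the gene of the carbohydrate-sensing transcription factor ChREBP. ChREBPβ-deficient mice (ChREBPbeta_KO, n = 8) carried a whole-body CRISPR/Cas9 deletion at exon 1b of Mlxipl, from which the short isoform ChREBPβ is transcribed. WT littermates of each line (ChREBPtotal_WT and ChREBPbeta_WT, n = 8 each) were the controls. All 31 mice ate regular chow, were fasted for 24 h and were then refed for 18 h with drinking water holding 20% glucose. The age of the mice is not given in the sources used here, and replicate 3 of the total ChREBP-KO group was not analysed here.

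ChREBP binds DNA with its partner Mlx at carbohydrate response elements and activates genes of glycolysis and fatty acid synthesis when glucose metabolism is high. In the liver it is known for the response to sugar feeding, in which it works beside SREBP1c, and its short isoform ChREBPβ is made from a promoter that ChREBP itself activates. The present set has members at the cell surface, members that bind calcium or calmodulin, and 1 RNA without a protein product. Clec2h (Clr-f) is a C-type lectin-related surface protein whose family members are ligands of NKR-P1 receptors on natural killer cells. Tmeff2 (tomoregulin-2) is a membrane protein with follistatin-like and EGF-like domains, and Adrb3 is the β3-adrenergic receptor, known from the lipolytic and thermogenic response of adipocytes. Cib3 belongs to the calcium and integrin binding proteins, and Pcp4l1 is a small IQ-motif protein related to the calmodulin regulator Pcp4.

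The sequences below are the parts of the transcripts that the array read, shown because each value of these genes rests on 1 or 2 such 60-base windows. Those of 4 genes are printed, in lower case and 5′ to 3′.
Tmeff2, A_52_P229052: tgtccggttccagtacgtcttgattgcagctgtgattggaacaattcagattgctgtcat
Cib3, A_55_P2078494: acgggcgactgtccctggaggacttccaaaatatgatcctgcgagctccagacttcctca
Adrb3, A_55_P2105685: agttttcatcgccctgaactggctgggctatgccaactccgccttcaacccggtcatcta
0610005C13Rik, A_52_P40327: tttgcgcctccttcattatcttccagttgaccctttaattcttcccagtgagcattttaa
0610005C13Rik, A_66_P125108: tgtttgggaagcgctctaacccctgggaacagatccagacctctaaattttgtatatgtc
On the mm9 build that the array annotation uses, the Tmeff2 window lay at chr1:51238653-51238712 on the plus strand. The Cib3 window lay at chr8:74729463-74729522 and the Adrb3 window at chr8:28337864-28337923, both on the minus strand. The 0610005C13Rik windows lay at chr7:52823343-52823402 and chr7:52825365-52825424 on the minus strand. Clec2h was read by 1 probe at chr6:128626525-128626584 on the plus strand, and Pcp4l1 by 2 probes, of which the brighter lay at chr1:173103423-173103482 on the minus strand.

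The targeted gene and 2 classical ChREBP targets checked the labels. The Mlxipl probe read 13.89 to 14.30 (log2 signal) in total ChREBP-KO livers and 15.14 to 15.48 in their WT littermates, without overlap, and 14.40 to 14.84 in ChREBPβ-deficient livers against 14.88 to 15.33 in theirs. Whether this probe lies inside a deleted part was not tested. Fasn, fatty acid synthase, read 13.98 to 15.02 in total ChREBP-KO livers against 17.27 to 18.30 in WT, and Pklr, liver pyruvate kinase, 6.13 to 6.74 against 9.22 to 11.23. Each array had 34131 to 38612 spots passing the detection flags and a median local background of 15 to 33 intensity units, and no kept spot was saturated. Arrays correlated at 0.9805 to 0.9988. The 8 hepatocyte markers were well above background on all arrays, 2 of them called higher and 0 lower in the total line, with a summed linear signal of 1606700 to 1801400 over all 31 livers. Of the other marker lists, cholangiocyte, intestine, neuron and red blood cell genes had 1 gene called higher each and 0 lower in the total line, exocrine pancreas 0 higher and 3 lower, and Kupffer cell and kidney 0. Arrays were scanned on 2 days, each of which held mice of all 4 groups.

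All 6 genes were higher in total ChREBP-KO livers than in their WT littermates, which is the difference they were chosen by, so these values are a description and carry no test. Clec2h had the highest log2 difference of the 23968 genes, Tmeff2 was ranked 3, Cib3 7 and Pcp4l1 8, while Adrb3 was ranked 61 and 0610005C13Rik 381. Cyp2b9, S100g, Cyp2b10 and Dbp filled the ranks between Clec2h and Cib3, with differences of 3.62, 3.42, 3.21 and 3.19. Just outside the first 8 genes stood Meg3 at 2.26 and Usp2 at 2.26, and Pcp4l1, just inside, at 2.36. For scale, 17.3% of genes were called higher in this comparison and 17.1% lower at an adjusted p under 0.05. In 7 of the 10 kept probes every total ChREBP-KO mouse lay above every WT littermate, a pattern that 3.26% of all 36059 probes showed. Neither count is read as a result here, since the same difference chose the genes. The plot of the 6 genes by genotype shows where the mice of the ChREBPβ line lay relative to the 2 groups of the total line, whose values the choice used.

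**Figure D1:**
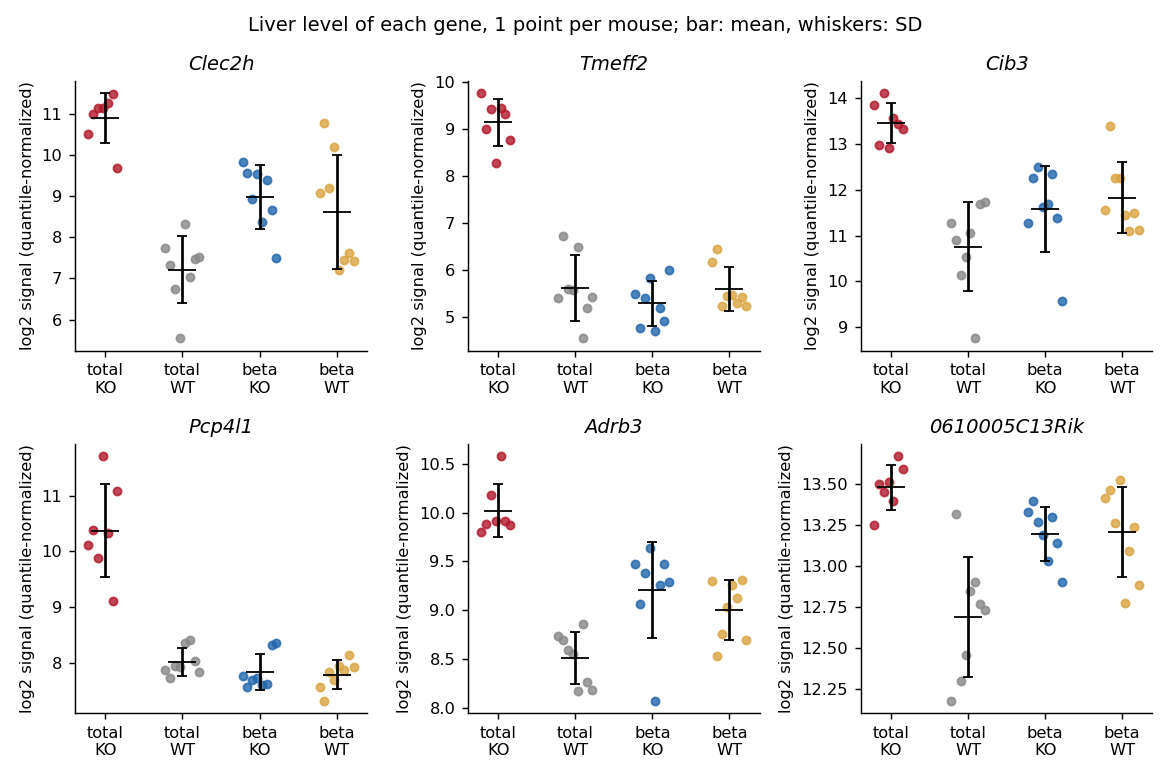
Level of each gene in each mouse (y axis, quantile-normalized log2 signal of the brightest probe) in the 4 genotype groups (x axis); points are mice, the horizontal bar is the group mean and the whiskers are 1 SD. Tmeff2 and Pcp4l1 are high in the 7 total ChREBP-KO mice, and no mouse of the ChREBPβ line exceeds the highest total-line WT mouse. In Clec2h, Cib3, Adrb3 and 0610005C13Rik the mice of the ChREBPβ line lie between the total ChREBP-KO mice and their WT littermates or overlap them.

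Among the surface proteins, Clec2h had the widest spread. Its log2 signal in total ChREBP-KO livers had a lowest value of 9.70, a median of 11.15 and a highest value of 11.48. In their WT littermates the lowest, median and highest values were 5.54, 7.40 and 8.32, in ChREBPβ-deficient livers 7.50, 9.16 and 9.82, and in ChREBPbeta_WT livers 7.21, 8.35 and 10.77. The 2 groups of the total line did not overlap, and both groups of the ChREBPβ line lay mostly between them. The difference in the total line was 3.69 ± 0.47 (SE of the fit), a 12.9-fold ratio, with 4.12 and 3.23 on the 2 scan days alone. Of the 16 mice of the ChREBPβ line, 11 lay above the highest total-line WT mouse and 3 reached the lowest total ChREBP-KO mouse. The WT mice of the ChREBPβ line fell into 4 mice at 7.21 to 7.62 and 4 mice at 9.08 to 10.77. The same mice split by Dbp, at 8.22 to 10.05 in the lower 4 and 13.71 to 15.26 in the upper 4. In the total line Dbp read 12.23 to 14.04 in total ChREBP-KO and 9.05 to 10.95 in WT livers. Genotype and the state marked by Dbp thus cannot be told apart in that line. WT mice of the total line averaged 1.41 ± 0.45 (SE) below WT mice of the ChREBPβ line, a contrast that shares arrays with the one used for the choice. In whole liver, fewer cells that express a gene and less RNA per cell cannot be told apart.

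Tmeff2 separated the total ChREBP-KO mice from all others by the widest margin. Its log2 signal was 8.28, 9.31 and 9.75 (lowest, median and highest) in total ChREBP-KO livers. It was 4.55, 5.50 and 6.73 in their WT littermates, 4.71, 5.30 and 5.996 in ChREBPβ-deficient livers and 5.23, 5.44 and 6.45 in ChREBPbeta_WT livers. All 7 total ChREBP-KO mice lay above all other 24 mice, and no mouse of the ChREBPβ line exceeded the highest total-line WT mouse. The difference was 3.51 ± 0.27 (SE), an 11.4-fold ratio, and the WT means of both lines lay 0.02 apart. It was 4.37 with processed signals scaled to the 75th percentile and 2.74 with normexp background correction. The probe was well above background on 7 of 7, 7 of 8, 8 of 8 and 8 of 8 arrays of the 4 groups, and passed all 3 scanner flags on 5, 6, 8 and 7. Raw intensity, without background subtraction, was 23 to 107 in total-line WT livers against 309 to 989 in total ChREBP-KO livers. The low level was thus detected but lay near the median local background, which was 15 to 33 units across arrays.

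Adrb3 differed by less, and the ChREBPβ line lay mostly between the 2 groups of the total line. Its log2 signal was 9.80, 9.92 and 10.58 in total ChREBP-KO livers (lowest, median, highest), 8.17, 8.57 and 8.86 in their WT littermates, 8.07, 9.33 and 9.63 in ChREBPβ-deficient livers and 8.53, 9.08 and 9.31 in ChREBPbeta_WT livers. The total ChREBP-KO mice overlapped no other group, and 12 of 16 mice of the ChREBPβ line lay above the highest total-line WT mouse. The difference in the total line was 1.52 ± 0.17 (SE), a 2.86-fold ratio, with 1.30 and 1.76 on the 2 scan days alone. Because Adrb3 is best known from fat, adipocyte markers were read beside it. Of the 10 markers 8 were kept, and only carbonic anhydrase Car3 was called, higher by 0.79 ± 0.14 (adjusted p = 6.45e-05). Car3 had mean log2 signals of 17.41 and 16.62 and thus carried most of the summed linear signal of the list, which was 159650 to 205720 in total ChREBP-KO, 80425 to 137870 in total-line WT, 118490 to 189840 in ChREBPβ-deficient and 90386 to 175830 in ChREBPbeta_WT livers. Adipoq was well above background on 2 of 7, 4 of 8, 2 of 8 and 5 of 8 arrays of these groups and Ucp1 on 0, 1, 0 and 0. The other 7 kept markers differed by −0.40 (Cidea) to 0.19 (Lpl), with adjusted p of 0.513 to 0.974. Cfd (adipsin) varied widely, from 4.71 to 12.94 in total ChREBP-KO and from 4.59 to 11.44 in total-line WT livers. The part of these differences in that of Adrb3 was not tested.

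Of the calcium-linked genes, Cib3 followed the pattern of Clec2h. Its log2 signal was 12.91, 13.43 and 14.11 in total ChREBP-KO livers (lowest, median, highest), 8.75, 10.98 and 11.74 in their WT littermates, 9.56, 11.66 and 12.51 in ChREBPβ-deficient livers and 11.11, 11.53 and 13.39 in ChREBPbeta_WT livers. The total line did not overlap, 6 of 16 mice of the ChREBPβ line lay above the highest total-line WT mouse, and 1 of them reached the lowest total ChREBP-KO mouse. The difference was 2.70 ± 0.40 (SE), a 6.49-fold ratio. Pcp4l1 followed the pattern of Tmeff2, at 9.11, 10.33 and 11.71 in total ChREBP-KO livers against 7.72, 7.93 and 8.40 in WT littermates, 7.56, 7.71 and 8.36 in ChREBPβ-deficient and 7.31, 7.85 and 8.14 in ChREBPbeta_WT livers. Every total ChREBP-KO mouse lay above the other 24 mice, and the other 3 groups overlapped throughout. Its difference was 2.36 ± 0.23 (SE), a 5.14-fold ratio, and its spread was larger among total ChREBP-KO mice (SD 0.84) than among their WT littermates (SD 0.25).

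The long non-coding RNA 0610005C13Rik had the smallest difference of the 6 genes by their brightest probes. Its log2 signal was 13.25, 13.50 and 13.67 in total ChREBP-KO livers (lowest, median, highest), 12.17, 12.75 and 13.32 in WT littermates, 12.90, 13.23 and 13.40 in ChREBPβ-deficient and 12.77, 13.25 and 13.53 in ChREBPbeta_WT livers. Of the total-line WT mice 1, replicate 2, overlapped the total ChREBP-KO range, and 8 of the 16 mice of the ChREBPβ line reached it. The difference of 0.80 ± 0.13 (SE), a 1.735-fold ratio, was therefore a separation from low total-line WT mice more than from the ChREBPβ line, whose WT mice averaged 0.27 below the total ChREBP-KO mice (pooled SD 0.22).

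By the scanner flag for a spot well above background, detection of the kept probes differed little between groups, with losses in total-line WT livers only. Of the 11 probes 8 were detected on all 31 arrays. The exceptions were the main Tmeff2 probe on 1 array of total-line WT, the second Cib3 probe on 2 arrays of the same group, and the second Tmeff2 probe, A_66_P136035. That probe was well above background on 7 of 7 total ChREBP-KO arrays and on 0 of 24 other arrays. It lay at chr1:51036676-51036735 (mm9), and because it failed the filter it entered no fit.

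Where a gene had 2 kept probes, both gave the same direction in the total line but not the same size. For Cib3 the second probe, 855 bases away, gave a difference of 1.23 against 2.70. By that probe the 2 groups of the total line overlapped, and 9 of 16 mice of the ChREBPβ line reached the lowest total ChREBP-KO mouse. For Pcp4l1, 1055 bases away, the values were 0.77 and 2.36. Adrb3 gave 0.93 against 1.52 and 0610005C13Rik 1.05 against 0.80, without overlap by its second probe. Within groups the 2 probes moved together over the 31 arrays, with a group-centred Pearson r of 0.891 for Cib3, 0.806 for Pcp4l1, 0.745 for Adrb3 and 0.691 for 0610005C13Rik, given as a description. The log2 gap between the 2 Cib3 probes was 6.72 to 7.05 in total ChREBP-KO livers and 4.27 to 6.19 in the other 3 groups, without overlap. For Pcp4l1 the gap was 2.15 to 3.48 in total ChREBP-KO livers and 0.84 to 1.80 elsewhere. The dimmer probes had raw median intensities of 40 to 96.5 for Cib3 and 94.2 to 182 for Pcp4l1 in the 4 groups, against 1830.5 to 10482 and 213.5 to 1250.5 for the brighter ones, and the part of this low signal in the gap was not tested.

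**Figure D2:**
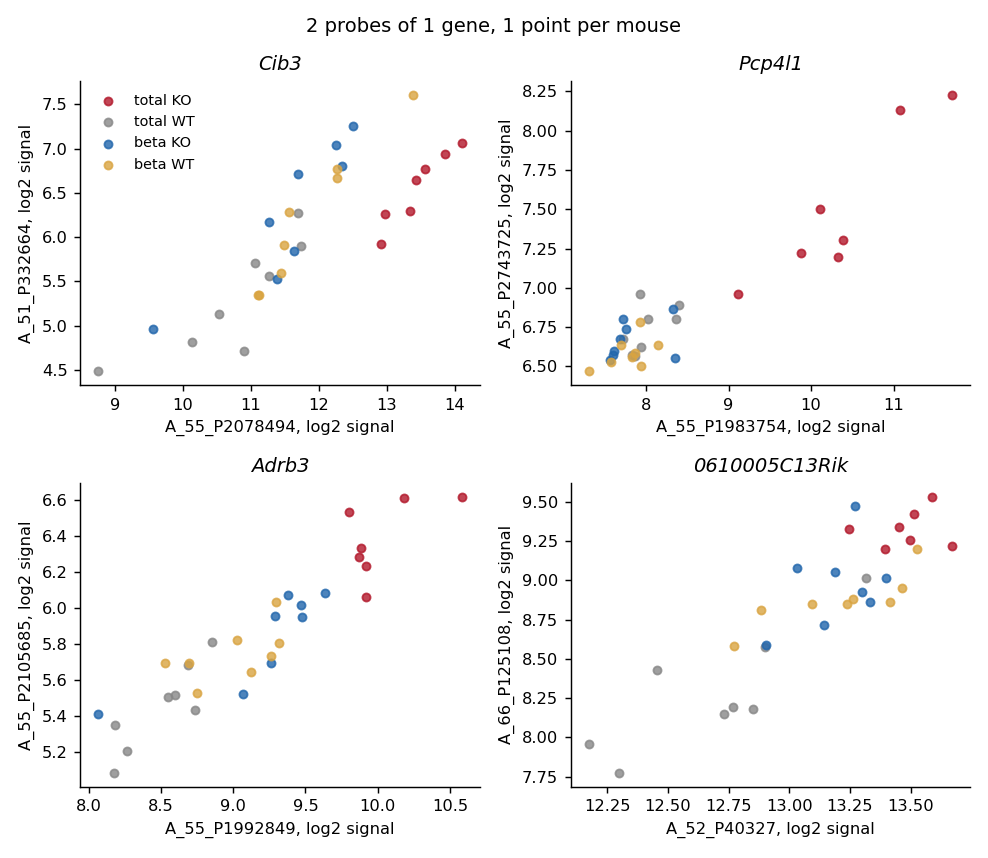
Log2 signal of the brighter probe (x axis) against the second probe (y axis) of Cib3, Pcp4l1, Adrb3 and 0610005C13Rik; points are mice, coloured by genotype group. For Cib3 the 7 total ChREBP-KO mice form a band of their own, shifted to the right at a given level of the second probe from the other 24 mice, whose gap between probes reaches at most 6.19 against at least 6.72 in the total ChREBP-KO mice.

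The loss of ChREBPβ alone was the comparison that the choice of genes did not use. None of the 6 genes passed the test between ChREBPβ-deficient mice and their WT littermates. Clec2h differed by 0.36 ± 0.45 (SE, 95% interval −0.56 to 1.27), Tmeff2 by −0.30 ± 0.26 (−0.83 to 0.22) and Adrb3 by 0.21 ± 0.17 (−0.13 to 0.54). Cib3 differed by −0.25 ± 0.39 (−1.04 to 0.54), Pcp4l1 by 0.04 ± 0.22 (−0.40 to 0.49) and 0610005C13Rik by −0.01 ± 0.12 (−0.26 to 0.24). The Adrb3 difference was 0.47 and 0.005 on the 2 scan days alone, and 0.37 without ChREBPβ-deficient replicate 5, the lowest mouse, where the unadjusted p was 0.00856 and the adjusted p 1. The limma adjusted p was 1 for each of the 10 probes, 0 of which had an unadjusted p under 0.05, and an exact Mann-Whitney test also called 0. In this comparison 0.00417% of genes, 1 gene, was called, and 4.98% of probes had an unadjusted p under 0.05. For the brightest probe of each of the 6 genes the upper bound lay below the lower bound of the difference in the total line, as the plot of both differences shows. The lines have separate WT littermates and the genes were chosen by their difference in the total line, so this is a description. The interval of Clec2h still allows a difference of up to 1.27, a ratio above the 1.735-fold of 0610005C13Rik in the total line. The genotypes were also unevenly spread over the Dbp clusters of mice given below. The lower cluster held ChREBPβ-deficient replicates 7 and 8 and ChREBPbeta_WT replicates 5, 6, 7 and 8. These differences thus mix genotype with the make-up of the clusters, and genotypes were not compared within clusters.

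**Figure D3:**
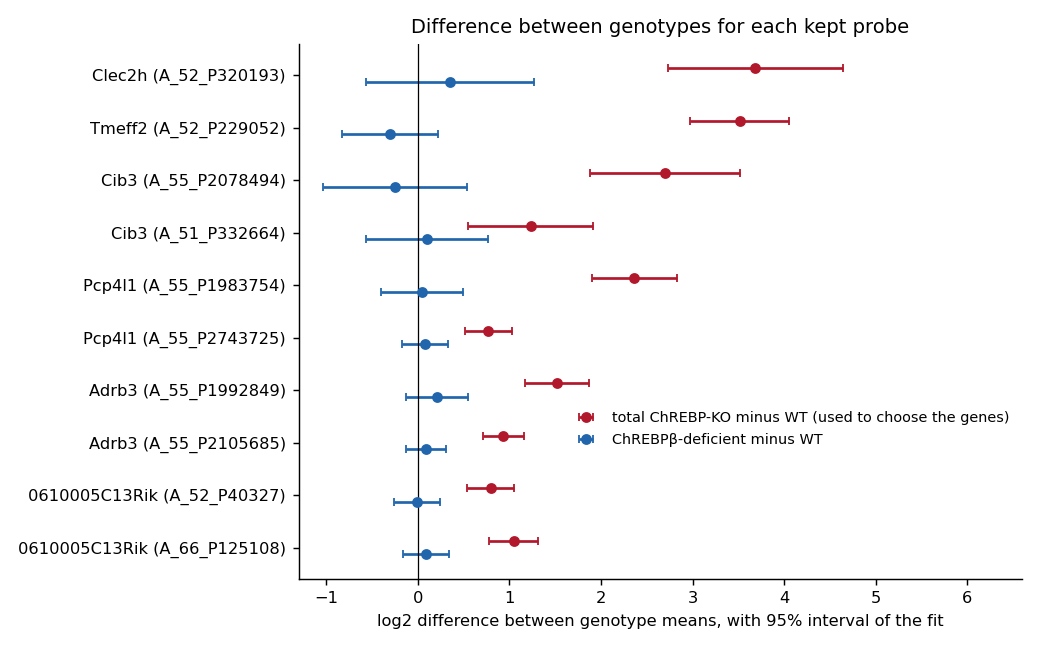
Log2 difference between genotype means (x axis) with the 95% interval of the fit for each of the 10 kept probes (y axis), in the total line (red) and the ChREBPβ line (blue). All 10 blue intervals include 0, whereas the red differences, which chose the genes, run from 0.77 to 3.69.

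The relatives and pathway partners of these genes were read from 5 lists. Of 58 listed genes 43 were kept, 6 were called higher and 5 lower in total ChREBP-KO livers, with a median difference of 0.0071 against 0.0078 for all genes, and 0 were called in the ChREBPβ line. Set against 17.3% and 17.1% of all genes, these counts are near the background. The difference in the total line departed from that in the ChREBPβ line for 7 of the 43, and for 15.3% of all genes, by the interaction test in limma. In the lectin family, 1 of 6 kept genes was called. Clec2d (Ocil), the ligand of the inhibitory receptor NKR-P1B, was higher by 1.26 ± 0.20 (adjusted p = 1.55e-05), with mean log2 signals of 11.51 and 10.25. Clec2e, Clec2g, Clec2i, Clec2l and the receptor gene Klrb1c differed by −0.17 to 0.06 with adjusted p of 0.14 or more. The markers of natural killer and T cells, 5 of 9 kept, had 0 calls, and their summed signal of 1207 to 1678 in total ChREBP-KO livers overlapped that of WT littermates, 1216 to 1535.

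Tmeff2 carries follistatin-like domains, so activins, their receptors and follistatins were listed with it. Of 15 kept genes, 2 were higher and 2 lower. Inhba, the βA subunit of activin, fell by 2.12 ± 0.22 on the log2 scale (adjusted p = 1.49e-08), with a mean of 9.17 in total ChREBP-KO livers against 11.30 in WT. Inhbc, the hepatic βC subunit, was higher by 0.45 ± 0.10 (adjusted p = 0.000811), and Inhbe, the βE subunit, by 0.60 ± 0.20 (adjusted p = 0.0251). The Inhbe call was lost without total ChREBP-KO replicate 1 or 5 or total-line WT replicate 8, at adjusted p of 0.0511 to 0.059, and on either scan day alone (0.62 and 0.54, adjusted p = 0.169 and 0.22). Fstl1 was called lower through 1 of its 3 probes, while its brightest probe differed by 0.09 ± 0.16 (adjusted p = 0.746). The receptors Acvr1, Acvr1b, Acvr2a and Acvr2b differed by −0.20 to 0.07 and were not called.

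Among the 3 other CIB genes, Cib2 was higher by 0.62 ± 0.12 (adjusted p = 0.00027) and Cib1 and Cib4 were not called. Its difference was 0.75 on the first scan day and 0.47 on the second, where the adjusted p was 0.147. Of the calmodulins and small IQ-motif proteins, 2 of 4 were lower and 0 higher. Calm3 fell by 0.28 ± 0.07 (adjusted p = 0.00232), a call lost on the first scan day alone (−0.20, adjusted p = 0.216), and Calm2 was called through its second probe. Pcp4 and Nrgn, the closest relatives of Pcp4l1 on the list, differed by −0.08 ± 0.08 and 0.00 ± 0.10 and were not called.

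The adrenergic list, 15 of 18 kept, had 2 genes higher and 1 lower, all by small amounts. Pde3b, a cAMP phosphodiesterase, was higher by 0.27 ± 0.06 (adjusted p = 0.00139), and the G protein gene Gnas by 0.18 ± 0.06 (adjusted p = 0.0159). The adenylate cyclase Adcy9 fell by 0.24 ± 0.06 (adjusted p = 0.00112). Each call was lost on 1 scan day alone. On the second day Gnas differed by 0.02 (adjusted p = 0.867) and Pde3b by 0.25 (adjusted p = 0.109), and on the first Adcy9 differed by −0.24 (adjusted p = 0.0723). The main hepatic receptor Adra1b, with a mean log2 signal of 12.94 in total ChREBP-KO livers, differed by −0.06 ± 0.08 (adjusted p = 0.664).

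Genes that lie near the members on the chromosome were examined within 500 kb of each member's probes on mm9. Of 170 such genes, 40 were called higher (23.5%) and 17 lower (10%), against 17.3% and 17.1% of all genes, and their median difference was 0.05. Near Pcp4l1, 9 of 42 genes were higher and 6 lower. Nr1i3, the constitutive androstane receptor and a regulator of Cyp2b genes, lay 44.4 kb away and was higher by 1.17 ± 0.16 (adjusted p = 1.05e-06), and Cfap126, at −46.4 kb on the other side, fell by 0.69 ± 0.08 (adjusted p = 6.17e-08). Near Tmeff2, 2 of 5 genes were higher. The transcript AK050026, 325.3 kb away, rose by 1.37 ± 0.19 (adjusted p = 2.75e-06), and Nabp1 was called by another probe than its brightest, which differed by 0.07 (adjusted p = 0.666). Near 0610005C13Rik, 14 of 62 genes were higher and 5 lower. Dbp, a circadian PAR bZIP transcription factor, lay 142 kb away and was higher by 3.19 ± 0.99 (adjusted p = 0.0143), reading 12.23 to 14.04 in total ChREBP-KO livers against 9.05 to 10.95 in WT. It was not called within either scan day alone, with adjusted p of 0.0513 and 0.249 for differences of 3.55 and 2.77. Of 15 alternatives 13 kept the call, as did every fit without 1 mouse of the total line (limma adjusted p of 0.0149 to 0.0275). The fit shares 1 spread over the 4 groups. The SD of Dbp was 0.62 in total ChREBP-KO and 0.72 in total-line WT livers. In ChREBPβ-deficient and ChREBPbeta_WT livers it was 2.29 and 3.12. The sulfotransferase Sult2b1, 162.1 kb away, was higher by 1.06 ± 0.38 (adjusted p = 0.0336). That call was lost without total ChREBP-KO replicate 5 or 6 or total-line WT replicate 4 or 5, with differences of 0.60 to 1.04. On either scan day alone the Sult2b1 call was lost too (1.05 and 1.05, limma adjusted p = 0.262 and 0.167).

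Around the other 3 genes the largest changes were smaller. Near Clec2h, 2 of 18 genes were higher and 2 lower, with ENSMUST00000071101 at −0.50 ± 0.10 and Rhno1 at −0.42. Near Cib3, 7 of 28 were higher and 3 lower, with Fam32a at 0.36, and Zfp961 was called in opposite directions by different probes. Near Adrb3, 6 of 15 were higher and 1 lower, with Gm9731 at −0.47 ± 0.06 and an unnamed transcript, at −402.4 kb, at 0.30 ± 0.06. No neighbour of these 3 genes changed by more than 0.50 among those called. Of the 6 genes, only 0610005C13Rik had neighbours with a higher difference than its own, Dbp and Sult2b1.

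**Figure D4:**
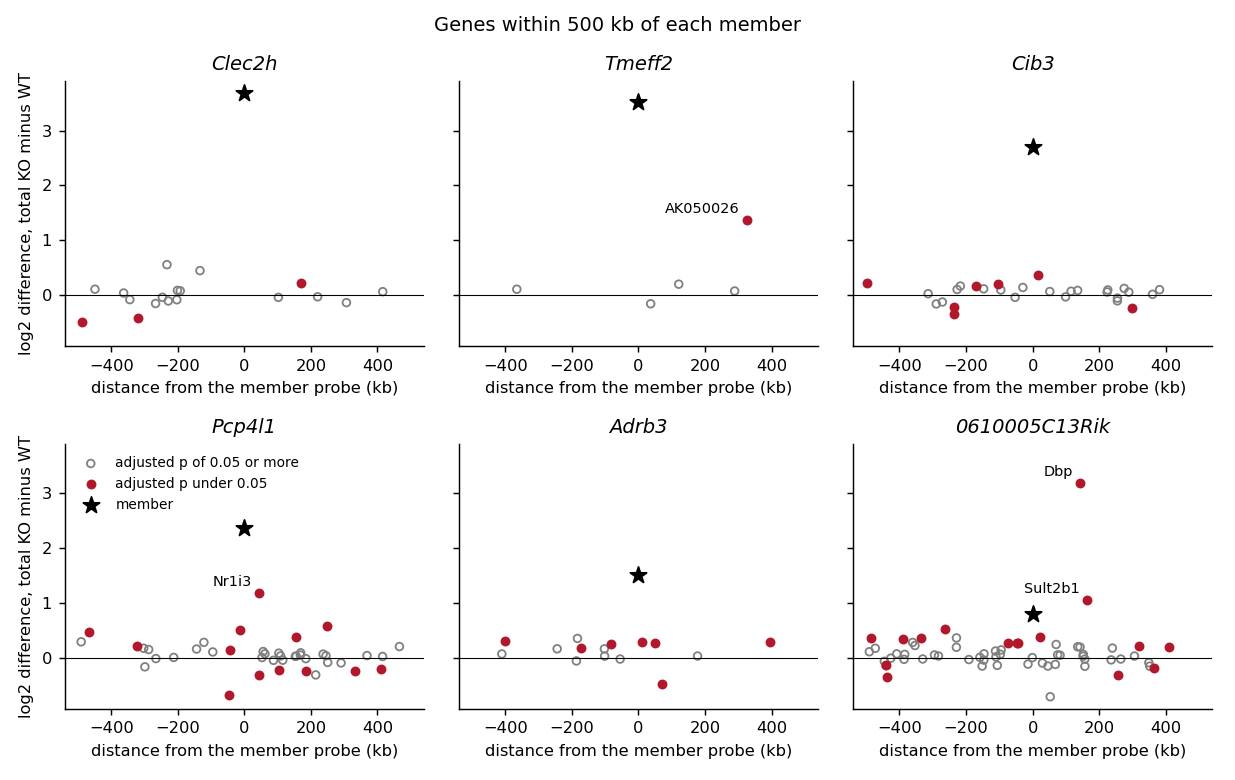
Log2 difference between total ChREBP-KO and WT livers (y axis) of genes within 500 kb of each member (x axis, distance from the member's probe in kb); the star is the member, filled points are genes whose brightest probe had an adjusted p under 0.05 and open points the others. Nr1i3 beside Pcp4l1, AK050026 beside Tmeff2 and Dbp and Sult2b1 beside 0610005C13Rik are the 4 neighbours with a difference above 1.

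RefSeq starts were available for 5 of the 6 genes (GRCm38.p6), and the 250 bases before each start were searched for short motifs on both strands. The windows of Tmeff2, Pcp4l1 and Clec2h are printed 5′ to 3′ on the strand of the gene. For Tmeff2 and Pcp4l1 no mouse of the ChREBPβ line exceeded the highest total-line WT mouse, and Clec2h had the largest difference. Capitals mark matches to CACGTG (E-box) and CCAAT or its reverse complement.
Tmeff2, chr1:50927273-50927522, plus strand: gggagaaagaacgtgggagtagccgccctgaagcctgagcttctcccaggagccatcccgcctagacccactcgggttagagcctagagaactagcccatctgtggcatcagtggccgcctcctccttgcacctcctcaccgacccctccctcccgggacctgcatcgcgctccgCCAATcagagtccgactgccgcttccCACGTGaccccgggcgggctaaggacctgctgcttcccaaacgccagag
Pcp4l1, chr1:171196269-171196518, minus strand: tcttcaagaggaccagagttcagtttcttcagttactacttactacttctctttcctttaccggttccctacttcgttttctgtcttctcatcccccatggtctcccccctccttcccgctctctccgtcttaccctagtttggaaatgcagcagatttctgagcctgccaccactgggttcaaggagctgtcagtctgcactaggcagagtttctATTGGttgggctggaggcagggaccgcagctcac
Clec2h, chr6:128662135-128662384, plus strand: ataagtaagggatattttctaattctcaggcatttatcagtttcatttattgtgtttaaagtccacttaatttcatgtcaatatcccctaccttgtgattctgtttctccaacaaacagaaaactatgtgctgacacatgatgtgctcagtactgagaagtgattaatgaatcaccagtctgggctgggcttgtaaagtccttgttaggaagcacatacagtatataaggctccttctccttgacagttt
The Tmeff2 window held CACGTG at bases 49 to 44 before the start, a hexamer that reads the same on both strands and that 6.02% of 32851 promoter windows of this length held. It also held CCAAT at bases 75 to 71, and the Pcp4l1 window held CCAAT on the reverse strand at bases 34 to 30, a motif in 33.8% of windows. TATAAA (12.4% of windows), TTATGTAA (the D-box of PAR bZIP factors, 0.819%), the carbohydrate response element (0.0974%) and the DR1 element of nuclear receptors (0.0335%) matched none of the 5 windows. The windows of Clec2h, Cib3 and 0610005C13Rik held none of the searched motifs, and their GC content was 37.2%, 55.2% and 56.8%, against 64.8% for Tmeff2 and 51.6% for Pcp4l1. A match is a run of letters and not a measured site, and these windows leave out distal elements. Whether the RefSeq starts are those used in these livers was not tested. The Cib3 window holds an ATG followed by an open reading frame, so it may lie inside the transcribed gene. Its lack of motifs therefore describes that window alone.

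Whether the genes varied together from mouse to mouse was asked after removing each group's mean, which takes out the genotype difference. Over the 31 arrays 3 of 15 pairs passed an adjusted p of 0.05 by permutation within groups. Clec2h correlated with Cib3 at r = 0.584 (Spearman rho = 0.556, permutation p = 0.00119, adjusted p = 0.00892) and with 0610005C13Rik at r = 0.559 (rho = 0.615, p = 0.0028, adjusted p = 0.014). Cib3 correlated with Pcp4l1 at r = −0.47 (rho = −0.619, permutation p = 0.00031, adjusted p = 0.00465). Without the 2 mice farthest from the median of the first gene these were 0.525, 0.516 and −0.399. Within the 2 scan days they were 0.575 and 0.485 for Clec2h with Cib3, 0.515 and 0.633 for Clec2h with 0610005C13Rik, and −0.619 and −0.388 for Cib3 with Pcp4l1. With values also centred on scan day, the pair of Clec2h and 0610005C13Rik no longer passed (r = 0.538, adjusted permutation p = 0.0883).

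In the 16 mice of the ChREBPβ line, none of which the choice used, 6 of 15 pairs passed. Clec2h and 0610005C13Rik were the closest pair, at r = 0.874 (rho = 0.888, permutation p = 0.00014, adjusted p = 0.0021), and r was 0.86 without the 2 farthest mice. Clec2h correlated with Cib3 at r = 0.754 (rho = 0.726, adjusted permutation p = 0.0048), and Cib3 with 0610005C13Rik at r = 0.662 (rho = 0.682, adjusted permutation p = 0.00849). Pcp4l1 ran opposite to all 3, at r = −0.71 with Clec2h, −0.772 with Cib3 and −0.59 with 0610005C13Rik (rho −0.653, −0.776 and −0.624, adjusted permutation p = 0.00544, 0.0051 and 0.0335). Without the 2 farthest mice these 5 pairs after the first had r of 0.602, 0.552, −0.534, −0.555 and −0.56. On the 2 scan days alone, with 7 and 9 mice, the Clec2h and 0610005C13Rik pair had r of 0.933 and 0.898 and the Cib3 and Pcp4l1 pair −0.894 and −0.664. Centring on scan day as well left 2 pairs past the threshold, Clec2h with 0610005C13Rik (r = 0.918, adjusted permutation p = 0.00345) and Cib3 with Pcp4l1 (r = −0.726, adjusted permutation p = 0.0331). Tmeff2 and Adrb3 passed with no other member in either set of mice. The arrays share slides and normalization, so these relations describe joint variation and no cause. Clec2h, Cib3, 0610005C13Rik and Pcp4l1 were also shifted between the Dbp clusters of mice given below. The pooled r of the ChREBPβ line thus include the step between those clusters and need not be graded variation. Pairs of members were not computed within the clusters.

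**Figure D5:**
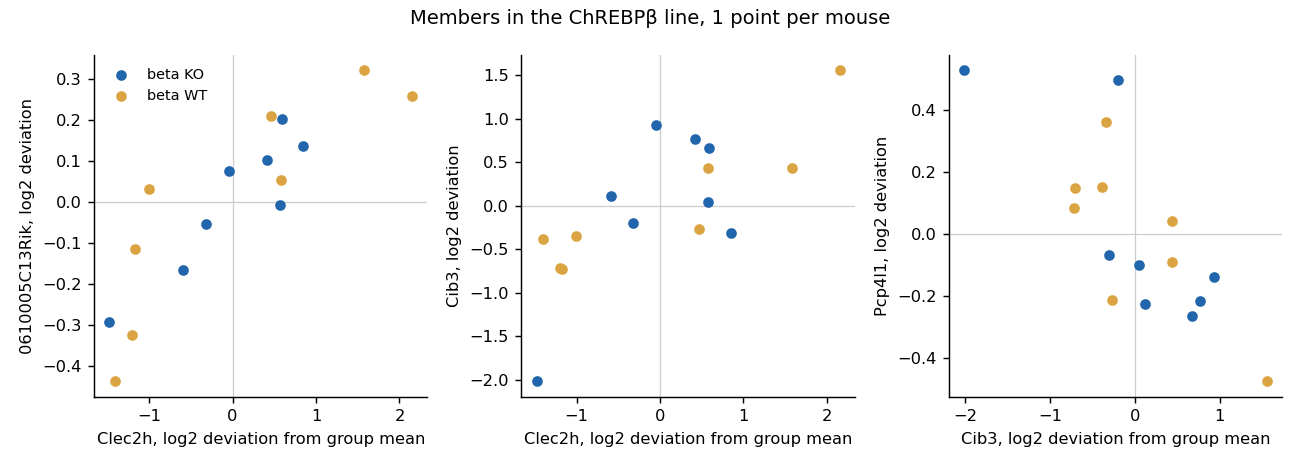
Deviation of each mouse of the ChREBPβ line from its group mean (log2 signal, both axes) for 3 pairs of genes; blue points are ChREBPβ-deficient mice and yellow points their WT littermates. Clec2h rises with 0610005C13Rik (r = 0.874) and with Cib3 (r = 0.754), and Pcp4l1 falls as Cib3 rises (r = −0.772).

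Relations with reference genes were read in the same 16 mice. Because Pklr and Dbp were read only within clusters, these r cannot be ranked against those of the member pairs, which were pooled. Within clusters, values were not centred on group means, and mice of both genotypes were permuted together. Of 36 relations with Fasn, Pklr, Mlxipl, Cyp4a14 and Dbp, counting Pklr and Dbp within clusters of mice, 0 had an adjusted permutation p under 0.05 and 6 had an unadjusted one. The lowest p was that of 0610005C13Rik with Fasn, at r = −0.707 (rho = −0.632, permutation p = 0.00139, adjusted p = 0.05), and r was −0.555 without the 2 farthest mice. Adrb3 with Mlxipl had r = 0.678 (rho = 0.624, permutation p = 0.00372, adjusted p = 0.067). Dbp split the ChREBPβ line into 6 mice at or below 10.05 and 10 mice at or above 11.83, so no r over all 16 mice is given. Within the 10 mice Clec2h had r = 0.0708 with Dbp (rho = 0.115, permutation p = 0.841), and within the 6 mice r = 0.556 (rho = 0.714, exact permutation p = 0.217). These r leave out any step between the clusters. In the 6 and the 10 mice Clec2h read 7.21 to 8.66 and 8.38 to 10.77, and Cib3 9.56 to 11.49 and 11.27 to 13.39. Pcp4l1 read 7.87 to 8.36 and 7.31 to 7.82, without overlap, and 0610005C13Rik 12.77 to 13.24 and 13.03 to 13.53. Tmeff2 read 4.91 to 5.996 and 4.71 to 6.45, and Adrb3 8.70 to 9.48 and 8.07 to 9.63. The steps were not tested.

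The genes whose group-centred level was most like each member over the 31 arrays were taken from all 23965 other genes with any variation. For 0610005C13Rik they were the chloride channel gene Clcn2 (r = 0.902), Upb1, β-ureidopropionase of pyrimidine catabolism (0.898), and Hykk (0.895). For Clec2h they were the ankyrin gene Ank3 (0.871), Mipol1 (0.866) and AW549877 (0.866). For Cib3 they were the G protein gene Gnal (0.768), Ilvbl (0.759) and the α-catenin gene Ctnna1 (0.745), and for Pcp4l1 the anion exchanger Slc26a6 (0.715), Rgp1 (0.705) and Serpina7, thyroxine-binding globulin (0.699). For Tmeff2 they were Gm16104 (0.745), the macrophage lectin Clec10a (0.678) and Padi4 (0.666). The 3 probes most like Adrb3 had no gene symbol, at r of 0.64, 0.612 and 0.611. Likeness within groups did not go with the genotype difference in every case. Ank3, Clcn2 and Serpina7 were higher in total ChREBP-KO livers by 1.55, 0.96 and 1.56 (adjusted p = 2.74e-07, 4.98e-06 and 1.16e-05), whereas Mipol1, Gnal and Slc26a6 differed by −0.09, −0.09 and 0.00 (adjusted p = 0.6, 0.663 and 0.997).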

How the data were processed

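Liver RNA was labelled with Cy3 and hybridised to SurePrint G3 Mouse v2 arrays, and the authors analysed the scanned images with Agilent Feature Extraction 10.10.1.1. The deposited scanner tables hold, per spot, median pixel intensity on a linear scale and detection flags. The deposited table of normalized log2 values was used only as an alternative: over 36057 shared probes it differed from the values used here by −0.0302 to 0.027 (1st to 99th percentile). As in the study's methods, spots were kept where they passed the flags on at least 26 arrays or on 6 arrays of a group (38721 of 59305 spots), log2 signals were quantile-normalized, and the median was taken per probe (36059 probes). The brightest probe stood for a gene, and a gene was called where any of its probes was. Genotypes were compared with limma 3.58.1 in R 4.3.3, in 1 fit of all 4 groups over all probes, with Benjamini-Hochberg adjustment and a threshold of 0.05. Correlations used 100000 permutations within groups in NumPy 2.4.6, with ranks from SciPy 1.17.1. Within clusters of mice, values were not centred on group means and were permuted over both genotypes together. Clusters under 10 mice were enumerated exactly. Clusters of mice were defined, after the values were seen, by a gap over 20% of the range with at least 4 mice on each side.

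The members, the 5 family lists and the marker lists were chosen with earlier results of these data known, and 2 genes of these lists are not reported here. Named were the members, family genes called or with the highest mean, the 2 called neighbours with the largest differences, the 3 genes most like each member, and the genes ranked between members. Other family genes and the adipocyte markers were named after their values were seen. Alternatives were other signals, scalings, filters, probes, blocks and an exact Mann-Whitney test, and each mouse was left out in turn. The fit was tested on simulated data. The number of arrays limits the precision, and mice are taken as separate animals from the labels. Sequences and gene types were taken from RefSeq (GRCm38.p6), in which all 6 genes matched by symbol. Adrb3 is named without a promoter.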

Additional observations from a re-analysis of the deposited data

Results flagged for a closer look

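In 2 of the 24 gene and group combinations tested with Dixon's criterion, the lowest mouse stood apart, where chance gives about 1 in 20 groups. For Cib3, ChREBPβ-deficient replicate 8 read 9.56, and its gap to the next mouse took up 0.579 of the range of the group. For Adrb3, ChREBPβ-deficient replicate 5 read 8.07, with a gap of 0.637 of the range. The critical value for 8 mice is 0.526.

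Of the family genes, 7 had a difference in the total line that departed from that in the ChREBPβ line by an interaction test in limma, against 15.3% of all genes, so 7 of 43 is near the background. The lectin Clec2d departed by 1.08 (adjusted p = 0.00744), the activin subunits Inhba by −1.68 (adjusted p = 3e-04) and Inhbc by 0.479 (adjusted p = 0.0165), and Cib2 by 0.617 (adjusted p = 0.0132). Calm3 departed by −0.281 (adjusted p = 0.0473), Pde3b by 0.292 (adjusted p = 0.0213) and Adcy9 by −0.24 (adjusted p = 0.0321).

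The second Tmeff2 probe, which failed the filter, gave a signal in total ChREBP-KO livers only. Against the lowest signal well above background on the other arrays it was at least 1.57-fold higher than in total-line WT, 1.58-fold higher than in ChREBPβ-deficient and 1.67-fold higher than in ChREBPbeta_WT livers, as means of normalized log2 values. It comes from the same contrast by which Tmeff2 was chosen.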

How the results depend on the processing

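The count of members called in the ChREBPβ line was 0 in every alternative, and that of family genes also 0. The members without overlap in the total line went from 5 to 3 when spots had to pass on all 31 arrays, which removes the main Tmeff2 and Pcp4l1 probes. Family genes called went from 11 to 7 on the second scan day alone. Neighbours called went from 56 to 30 and 26 on the first and second scan day alone, where fewer mice enter the fit, to 30 within 250 kb and to 92 within 1000 kb. Probes detected on all arrays went from 8 to 5 when all 3 scanner flags were required. Leaving out 1 mouse gave 5 to 6 members, 9 to 13 family genes and 45 to 57 neighbours, and 0 to 0 members and family genes in the ChREBPβ line. The small differences in that line changed sign for Adrb3 with slide as a fixed block (−0.0087), for Pcp4l1 (−0.0309) and 0610005C13Rik (0.0297) on the first scan day alone, and for the second probes of Cib3 (0.10) and 0610005C13Rik (0.0892). Without 1 mouse the differences ran from −0.384 to 0.0361 for Cib3, positive without ChREBPβ-deficient replicate 8, from −0.0307 to 0.10 for Pcp4l1, from 0.14 to 0.37 for Adrb3 and from −0.0737 to 0.0344 for 0610005C13Rik. The Tmeff2 difference in the total line was 4.37 with processed signals and 2.74 with normexp background correction, and the cause was not tested. Correlations in the ChREBPβ line went from 6 pairs to 2 with centring on scan day. Nothing in the labels says that replicate numbers pair the mice, so the numbers were not taken as pairs. Deviations of same-numbered mice correlated at −0.215 to 0.241 in the total line (2 of 7 pairs over 0.1) and −0.156 to 0.533 in the ChREBPβ line (6 of 8). These correlations do not settle whether the mice of the ChREBPβ line were paired. With the replicate block the counts were 5 members, 12 family genes and 56 neighbours, and 0 members in the ChREBPβ line.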
